A study of Mus musculus with 4 samples.

Results

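The mitochondrial ribosomal protein genes of the mouse were followed in cells labelled T-helper 17 (Th17), the CD4 T cells that make interleukin 17. Members were all protein-coding genes whose symbol starts with Mrpl or Mrps. There were 78 of them among 21764 protein-coding genes and 50600 gene rows in all. The samples were 4 RNA-seq libraries of primary cells of strain C57BL/6NJ, numbered by the labels as biological replicates 1 to 4 of 1 group. No treatment, genotype change, control group, age or sex was given. A CD4 T-cell differentiation protocol is linked, and the alignment name of each library in the file headers carries the tag 00hr. Whether the cells were taken before or after differentiation is not given, so each level below is that of cells with the Th17 label alone. All libraries have the same donor record, and p-values below measure only the spread between these samples. The assay is named total RNA-seq in the labels, but the title of the library protocol speaks of poly(A)+ RNA.

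The libraries held 29041979, 35018552, 48808978 and 45490373 counted fragments in replicates 1 to 4, and member genes took 61783, 73261, 103714 and 93510 of them. The T-cell genes Cd4 and Trac were at 969 and 3069 TPM (fragment counts divided by gene length, then scaled so that each library has the same sum). Of the 4 Th17 marker genes, Il17a (4.22 TPM) and Il17f (9.83 TPM) reached 1 TPM in every library, while Ccr6 was at 0.229 TPM and Il23r had 8 counts in all. All 4 markers of naive T cells reached it, with Tcf7 at 3034 and Ccr7 at 865 TPM, so markers of the Th17 label were low here and those of naive T cells were high. Of the markers of other cells, Cd8a, Lyz2 and Csf1r lay below 0.3 TPM, the erythroid genes Hbb-bt and Alas2 had 0 counts, and Cd8b1 and Cd68 were at 42.9 and 11.1 TPM. The libraries fell into pairs by sex chromosome genes. Xist, the X-inactivation RNA made in female cells, had 33369, 38273, 75 and 103 counts in replicates 1 to 4, and the Y-linked gene Ddx3y had 19, 34, 7184 and 9326. They were the most variable of all genes tested (edgeR adjusted p = 1.413e-06 and 3.545e-06), so the spread between the libraries is not technical alone, and the counts go against a single donor animal for all 4. In bulk RNA, fewer cells of a type and less RNA per cell cannot be told apart.

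Mitochondria hold their own ribosomes, which make the few proteins encoded in mitochondrial DNA, all of them membrane subunits of the respiratory chain and ATP synthase. The RNA of these ribosomes is mitochondrial, whereas in mammals every protein of them is encoded in the nucleus, made in the cytosol and imported. Some of the proteins descend from those of bacterial ribosomes and others are found in mitochondria alone. In T cells, mitochondrial translation is known as a requirement for respiration and for proliferation after activation.

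All 78 genes were expressed in all 4 libraries, at moderate and closely repeated levels. Each reached 1 TPM in every library, against 45.6% of all protein-coding genes. At 10 TPM the count was 68, at 50 TPM it was 24, and at 100 TPM it was 3. The median of the members' mean TPM was 40.6, with quartiles of 22.7 and 60.2, and 45 of the 78 lay above 34.3 TPM, the median of the 9933 protein-coding genes at 1 TPM or more in every library. Within libraries the members' median was 40.6, 40.0, 38.2 and 39.3 TPM in replicates 1 to 4, a mean of 39.5 ± 1.03 (SD, n = 4). Their summed level was 3611 ± 24.4 TPM. They took 0.218% ± 0.0038 of the fragments of nuclear protein-coding genes (SD, n = 4). The genes for the proteins of the cytosolic ribosome were far higher, with a median of 1098 TPM over 86 genes, which is 27.0-fold the members' median. A level below is the mean TPM ± SD (n = 4) where nothing else is said.

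**Figure D1:**
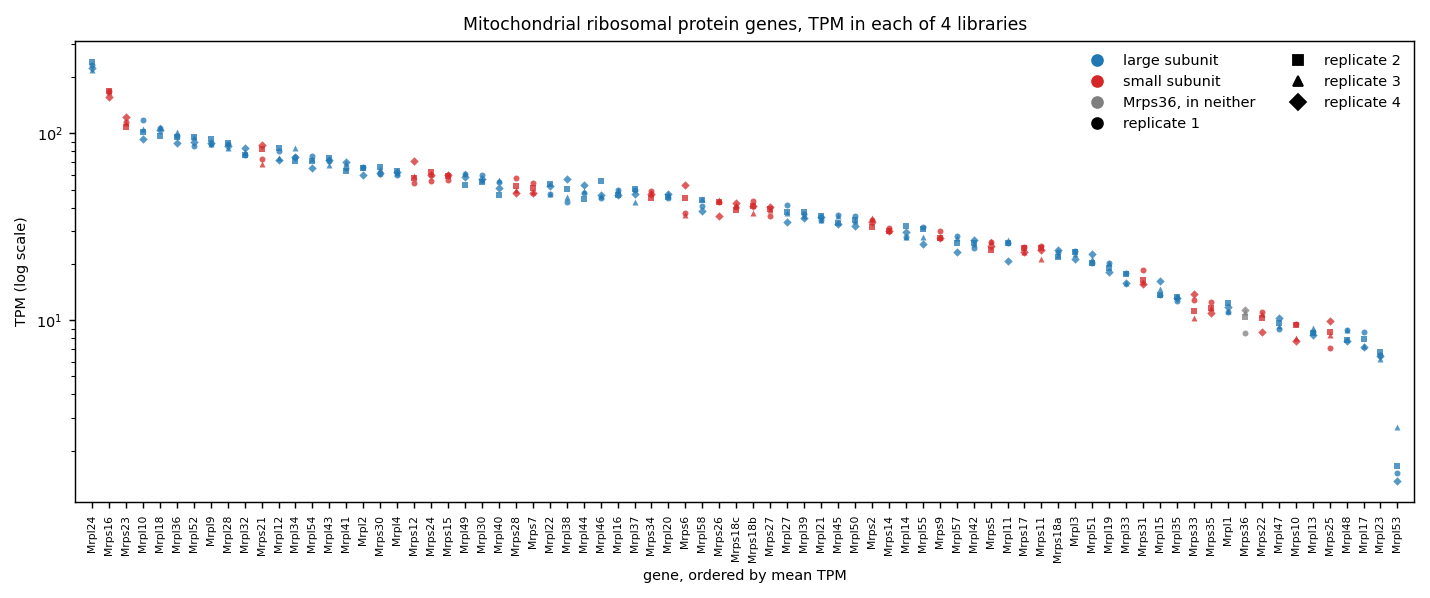
Level of each of the 78 genes in each of the 4 libraries, on a log scale of TPM, with genes ordered by their mean, the subunit shown by colour and the replicate by symbol. The levels form a gradual slope between Mrpl24 (229 TPM) and Mrpl23 (6.46 TPM), with Mrpl53 apart at 1.80 TPM, and for nearly all genes the 4 symbols lie close together.

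The plot of all members by level shows a gradual order rather than steps. In 70 of the 77 pairs of genes next to each other in that order, the means differed by no more than the sum of their SDs. The highest mean was 35.4 times that of Mrpl23, the second lowest. Its fold over Mrpl53, the gene listed lowest, was 126.85, and 187.9 with the length of the annotated principal transcript of each gene. Both may be too high, since fragments in exons that Mrpl53 shares with another gene were not counted, as given below. The large subunit, with 51 members, was slightly above the small one, with 26. The median of the large-subunit genes was 42.9, 44.3, 44.5 and 46.6 TPM in replicates 1 to 4, and that of the small-subunit genes was 36.7, 39.1, 36.9 and 38.2 TPM. The log2 ratio of these medians was 0.24 ± 0.05 (SD, n = 4) and lay above 0 in 4 of 4 libraries. The 46 members with a bacterial homologue and the 31 specific to mitochondria lay closer together on this scale, with medians of 41.7 ± 2.09 and 39.6 ± 1.35 TPM. Their log2 ratio was 0.07 ± 0.10, below its own SD, and was slightly negative in replicate 1. With principal transcript lengths this ratio and that of large to small were both 0.25. Each SD measures spread over libraries and not between the genes of a group, so whether the groups differ was not tested.

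In the large subunit, Mrpl24 was the most abundant member. It encodes the homologue of bacterial uL24, a protein at the exit of the tunnel through which the new chain leaves (ENSMUSG00000019710, chromosome 3, 87919506 to 87923672, plus strand, mm10). Its TPM was 231.5, 242.0, 218.4 and 223.7 in replicates 1 to 4, a mean of 229 ± 10.3. Each of these values lay above every value of every other member. Other proteins of the tunnel and its exit had genes at lower levels. Mrpl22 was at 50.2 ± 3.14 TPM and Mrpl4, whose product lines the tunnel, at 61.6 ± 1.21 TPM. Mrpl45, whose product binds the ribosome to the inner membrane, was at 34.6 ± 1.86 TPM. Mrpl23, for another protein at the exit, was at 6.46 ± 0.254 TPM, with 6.49, 6.78, 6.17 and 6.42 TPM in replicates 1 to 4. It was the second lowest member in the order by mean, so genes for 2 proteins of the exit lay near the 2 ends of the order. However, Mrpl23 came to 31.4 TPM with principal transcript lengths.

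The stalk is the flexible arm of the large subunit that recruits translation factors. Mrpl10, for the protein that anchors it, was at 105 ± 9.79 TPM, with 117.3, 101.7, 105.3 and 93.8 TPM in replicates 1 to 4. Mrpl12, for the stalk protein present in several copies per ribosome, was at 77.3 ± 5.63 TPM, with 80.0, 83.9, 73.7 and 71.7 TPM. Mrpl11, for a protein of the stalk base, was at 24.9 ± 2.71 TPM, with 25.83, 25.96, 26.85 and 20.86 TPM. Mrpl12 thus lay below Mrpl10 and above Mrpl11 in all 4 libraries, and none of the 3 ranges overlapped. The log2 ratio of Mrpl12 to Mrpl10 was -0.43 ± 0.12 and that of Mrpl12 to Mrpl11 was 1.64 ± 0.14 (n = 4, exact two-sided sign-flip permutation test p = 0.13 for each, the smallest that 4 libraries allow, and 0.15 after Benjamini-Hochberg adjustment over 6 pairs). With principal transcript lengths these ratios were -0.21 and 1.85, so the gap to Mrpl10 was smaller. The gene for the stalk protein of several copies was therefore not higher than the gene for its anchor.

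Around the peptidyl transferase centre, where the peptide bond is made, Mrpl2, Mrpl16, Mrpl27 and Mrpl3 were at 64.5 ± 2.91, 48.2 ± 1.78, 37.5 ± 3.21 and 22.6 ± 1.05 TPM. Their order was the same in every library. At the central protuberance, Mrpl18 was at 104 ± 5.10, Mrpl52 at 91.9 ± 5.14, Mrpl38 at 49.01 ± 6.29 and Mrpl48 at 8.31 ± 0.603 TPM. Mrpl18 encodes the homologue of uL18, and the other proteins here have no bacterial homologue. This region thus holds members from the top 10 and from the lowest 8. The remaining members of the top 10 that belong to the large subunit were Mrpl36 (95.8 ± 5.06 TPM), Mrpl9 (89.6 ± 2.83 TPM), Mrpl28 (86.4 ± 2.34 TPM) and Mrpl32 (79.0 ± 3.37 TPM). All of these have bacterial homologues. Mrpl32 is cleaved by the m-AAA protease of the inner membrane before it enters the ribosome.

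Several large-subunit members have roles outside the bacterial plan. Mrpl58 encodes a peptidyl-tRNA hydrolase built into the ribosome, known in human cells as ICT1, and was at 41.9 ± 2.97 TPM. Mrpl44, which carries a ribonuclease III fold, was at 48.6 ± 3.57 TPM and Mrpl41 at 66.9 ± 3.37 TPM. Mrps30 was named for the small subunit but its product is part of the large one. It was at 63.1 ± 2.87 TPM, with 60.3, 66.4, 64.4 and 61.1 TPM in replicates 1 to 4, and lay above the median of the large-subunit genes in each library. Placing Mrps30 and Mrps18a by symbol instead gave a log2 ratio of large to small of 0.27.

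Among the lowest large-subunit members, Mrpl47, Mrpl13 and Mrpl17 encode homologues of the core bacterial proteins uL29, uL13 and bL17. They were at 9.53 ± 0.57, 8.66 ± 0.334 and 7.73 ± 0.656 TPM. Mrpl53 was at 1.80 ± 0.589 TPM, with 1.52, 1.66, 2.67 and 1.37 TPM in replicates 1 to 4. It had between 10 and 30 counts a library, the fewest of any member, and replicate 3 was the highest. Its gene (ENSMUSG00000030037, chromosome 6, 83109040 to 83109939, plus strand, mm10) shared 88.0% of its exon bases with Gm42688 on the same strand. The counting left out fragments that fall in the exons of 2 genes, so the level of Mrpl53 is a lower limit for this gene length. Gm42688 held 1542 counts over the libraries, at 9.35 TPM.

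In the small subunit, Mrps16 and Mrps23 stood at the top. Mrps16, for the homologue of bS16 (ENSMUSG00000049960, chromosome 14, 20391231 to 20393555, minus strand, mm10), had 169.7, 168.8, 166.2 and 156.2 TPM in replicates 1 to 4, a mean of 165 ± 6.18. Mrps23, which has no bacterial homologue, had 114.4, 108.5, 113.7 and 121.9 TPM, a mean of 115 ± 5.54. Both lay above every other small-subunit gene in every library. Among all members Mrps16 had rank 2 with union lengths and rank 5 with principal transcript lengths, which are described below.

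Mrps12 encodes the homologue of uS12, the protein at the decoding centre where the codon is read. It was at 54.0, 57.8, 59.0 and 70.7 TPM in replicates 1 to 4, a mean of 60.4 ± 7.22, with replicate 4 the highest. Other small-subunit genes with bacterial homologues spread widely. Mrps24 (for uS3) was at 59.5 ± 2.88, Mrps15 at 59.1 ± 1.92, Mrps7 at 50.4 ± 2.88 and Mrps2 at 33.7 ± 1.56 TPM. Below these lay Mrps14 at 30.4 ± 0.504, Mrps9 at 28.2 ± 1.15, Mrps5 at 25.3 ± 1.37 and Mrps11 at 23.6 ± 1.66 TPM. Mrps28, for the counterpart of bS1, was at 51.8 ± 4.24 TPM. These 10 genes, from Mrps12 to Mrps28, spanned 23.6 to 60.4 TPM, while Mrps16, Mrps21 and Mrps10, also with bacterial homologues, lay outside that span at 165, 77.7 and 8.69 TPM.

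Of the small-subunit genes without a bacterial homologue, Mrps34 was at 47.3 ± 1.80 TPM and Mrps27, whose product carries pentatricopeptide repeats that bind RNA, at 38.6 ± 1.75 TPM. Mrps22 was at 10.2 ± 1.06 and Mrps25 at 8.47 ± 1.14 TPM. Mrps10, for the homologue of uS10, was at 8.69 ± 0.917 TPM. Mrps22, Mrps34 and Mrps25 are among the members in which inherited mutations cause mitochondrial disease in humans. Mrps36, despite its symbol, encodes a subunit of the 2-oxoglutarate dehydrogenase complex of the citric acid cycle. It was counted in neither subunit and had 8.48, 10.4, 11.1 and 11.3 TPM in replicates 1 to 4, with replicate 1 the lowest.

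The Mrps18 genes are 3 paralogues whose proteins take different places in the ribosome, Mrps18a in the large subunit and Mrps18b and Mrps18c in the small one. Mrps18a had 23.1, 21.9, 22.3 and 23.8 TPM in replicates 1 to 4. Mrps18b had 43.3, 40.7, 37.3 and 40.7 TPM, and Mrps18c had 40.3, 39.0, 41.5 and 42.2 TPM. On this scale Mrps18a lay below both others in every library, and the other two overlapped. The log2 ratios were -0.83 ± 0.09 for Mrps18a to Mrps18b and -0.84 ± 0.04 for Mrps18a to Mrps18c (n = 4, exact two-sided sign-flip permutation test p = 0.13 each, adjusted p = 0.15). That of Mrps18b to Mrps18c was -0.01 ± 0.12 (exact p = 1). The order of Mrps18a turned over with another gene length, with log2 ratios of 0.28 to Mrps18b and 0.47 to Mrps18c for principal transcripts.

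That length mattered for much of the order. TPM divides each count by the summed length of all annotated exons of the gene, its union length, which ranged from 566 to 8631 bases over the members. Across the 78 genes, Spearman's rho between union length and mean TPM was -0.657. TPM divides by this length, so a negative rho is partly built in. Between union length and CPM, counts scaled for library size alone, rho was 0.362. Between principal transcript length and the mean TPM computed with it, rho was -0.549. All of these are across genes, which share libraries and annotation and are not independent replicates. With the length of the annotated principal transcript in place of the union, the levels kept a rho of 0.749 with those above, and 5 of the top 10 genes were shared.

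**Figure D2:**
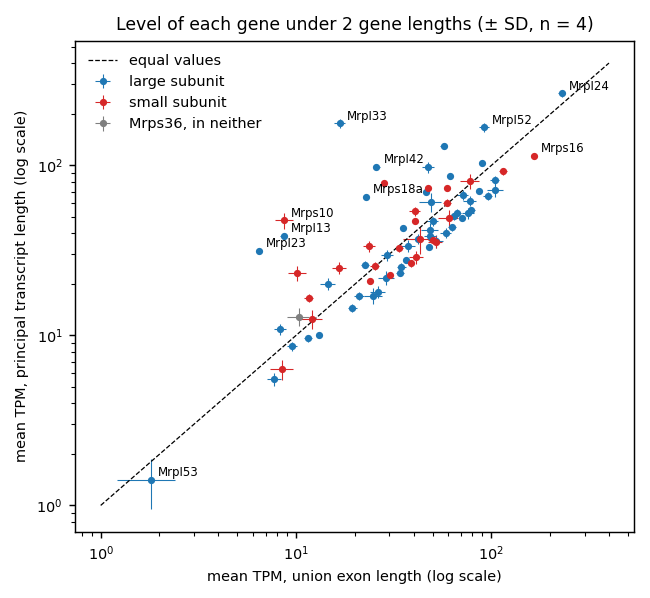
Mean TPM of each gene with the union exon length (horizontal axis) against that with the principal transcript length (vertical axis), both on log scales, with SD over the 4 libraries as bars and the dashed line at equal values. Most genes lie near the line, while Mrpl33 (16.8 against 177 TPM), Mrps10 (8.69 against 47.4 TPM) and Mrpl23 (6.46 against 31.4 TPM) lie far above it. Genes of unchanged length lie below the line through the rescaling of TPM, such as Mrps16 (165 against 114 TPM).

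In the plot of the levels under both lengths, 12 members moved by more than 1.5-fold from one to the other. TPM is scaled to the same sum, so changing all lengths also moves genes whose own length stays the same. Such genes came down, as did Mrpl10 (1708 bases under both), from 105 to 71.9 TPM. The count of 12 includes this rescaling and does not reflect each gene's own length alone. Mrpl33 moved most, from 16.8 to 177 TPM, since its union length of 7326 bases was set against a principal transcript of 478. Mrpl52 came to 168, Mrpl30 to 131, Mrpl42 to 97.9 and Mrps9 to 78.9 TPM. Mrps16 had 566 bases under both lengths and came down to 114 TPM through the rescaling alone. Mrpl24 was highest under either length, at 265 TPM for the principal transcript. Mrps22 came to 23.3 TPM. Of the lowest 8 genes, Mrps10, Mrpl13 and Mrpl23 came to 47.4, 38.6 and 31.4 TPM. Mrpl53, Mrpl17 and Mrps25 were listed lowest with principal transcripts, at 1.41, 5.54 and 6.31 TPM. Which transcripts these cells use was not tested, since the files hold 1 count per gene.

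Shared exons were a second limit on single levels. Exons of 8 members overlapped another gene on the same strand, and in 5 of them the overlap was over 10% of the exon bases. Apart from Mrpl53 these were Mrps34 with 37.0% (Nme3), Mrps18c with 23.2% (Gm43511), Mrps24 with 15.4% (Urgcp) and Mrps6 with 15.1% (Slc5a3). Nme3, which encodes a nucleoside diphosphate kinase, had 19 counts over the 4 libraries. The 5 annotated pseudogenes with Mrp symbols held 147 fragments in all, so few fragments were assigned to these copies.

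The members varied little between the libraries. No member was called excess variable, that is with a spread beyond the trend for genes of its abundance (0 of 78, edgeR quasi-likelihood dispersion test with Benjamini-Hochberg adjusted p below 0.05), against a background of 24 of 12464 genes tested, 0.193%. An unadjusted p below 0.05 was reached by 0 of 78 members and by 665 of the 12464 genes, 5.34%. DESeq2 marked 0 of 78 as dispersion outliers and 108 genes in all, 0.866%. At background shares of 0.193% and 0.866%, 0 calls among 78 genes do not set the members apart. On simulated counts for 12464 genes with 1 library changed, this test of spread recovered 3% of genes changed 2-fold and 85% of those changed 4-fold, so it speaks to large departures alone.

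**Figure D3:**
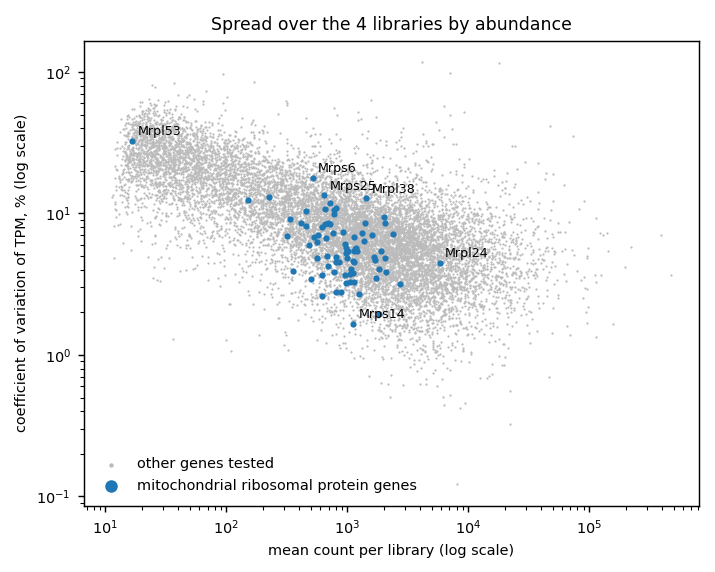
Coefficient of variation of TPM over the 4 libraries (vertical axis, percent) against mean count per library (horizontal axis), both on log scales, for the 78 members in blue and all other genes tested in grey. Most members lie within the grey cloud at or below 10%, and Mrpl53, the member with the fewest counts, is highest at 32.7%.

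The plot of spread by abundance gives the sizes. The members' median coefficient of variation was 5.52%, against 7.94% for all genes tested. For the genes of the cytosolic ribosome the median was lower still, at 4.08%. The coefficient was under 10% in 67 of 78 members, or 85.9%, and in 60.3% of all genes tested. The highest library was less than 1.5 times the lowest in 77 members, or 98.7%, and in 80.9% of all genes tested, with Mrpl53 as the exception. None of these comparisons with all genes tested was matched for abundance, on which the spread depends. The steadiest member was Mrps14, with 31.1, 29.9, 30.5 and 30.2 TPM in replicates 1 to 4, a coefficient of variation of 1.66%. Mrpl4, Mrpl35 and Mrpl28 followed, at 1.96%, 2.61% and 2.71%. Mrpl35 encodes the homologue of bL35 and was at 13.1 ± 0.342 TPM, so steady values were not limited to abundant members.

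The least steady members after Mrpl53 were Mrps6, Mrps25, Mrps33, Mrpl38 and Mrps36, with coefficients of variation of 17.9%, 13.5%, 13.1%, 12.8% and 12.4%. Mrps6, for the homologue of bS6, had 37.3, 45.1, 36.5 and 53.0 TPM in replicates 1 to 4. Mrpl38 had 42.9, 50.1, 45.7 and 57.3 TPM. Both were highest in replicate 4 and next highest in replicate 2. Their unadjusted p-values were the smallest among the members in the edgeR dispersion test, at 0.0538 for Mrpl38 (adjusted p = 0.942 over all genes tested) and 0.0716 for Mrps6 (adjusted p = 0.961). Mrps25 was lowest in replicate 1 and highest in replicate 4, at 7.06 and 9.86 TPM.

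The family as a whole shifted little from library to library. Each gene's log2(CPM + 1), with CPM after TMM scaling, was centred on its mean over the libraries and averaged over the 78 genes. The averages were -0.011, -0.012, 0.019 and 0.0045 in replicates 1 to 4, with an SD of 0.0146, against 0.00893 for the average of all genes tested. Replicates 1 and 2, which were high in Xist, thus lay below replicates 3 and 4, which were high in Ddx3y, and the part of this split was not tested. Scaling by library totals turned the sign in replicates 1 and 4. Without replicate 3 the SD was 0.00931. In all, 71 of 78 members, or 91.0%, stayed within 0.2 of their mean in every library on this scale, against 74.9% of all genes tested, not matched for abundance.

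**Figure D4:**
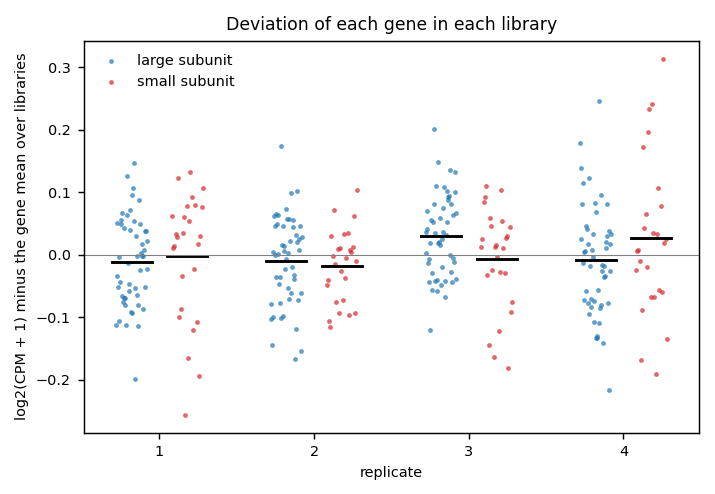
Deviation of each gene's log2(CPM + 1) from its mean over the 4 libraries, by replicate, for large-subunit genes in blue and small-subunit genes in red, with the mean of each group as a black bar. The bars all lie within 0.03 of 0, the furthest high point is Mrps6 in replicate 4 (0.31) and the furthest low point is Mrps25 in replicate 1 (-0.26).

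In the plot of the deviations by replicate, the means of both subunits stayed near 0 in every library. The large-subunit mean was -0.011, -0.0096, 0.030 and -0.0090 and the small-subunit mean -0.0022, -0.018, -0.0066 and 0.026 in replicates 1 to 4. Replicate 1 held the highest TPM for 25 members, or 32.1%, against 33.3% of all genes tested. Replicate 2 held it for 16 members (20.5%) and for 3121 of the 12464 genes tested. Replicate 3 held it for 19 members, or 24.4%, against 18.3%, and replicate 4 for 18 members, or 23.1%, against 23.3%. The lowest TPM fell in replicate 4 for 29 members, or 37.2%, against 35.7% of all genes tested, and in replicate 3 for 14 members, or 17.9%, against 31.0%.

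The members lay on 17 chromosomes, with 11 on chromosome 11, 8 on chromosome 17 and none on X. Many began close to a gene on the other strand that runs the opposite way. A protein-coding gene on the other strand whose start lay within 1000 bases is called a divergent neighbour here, also where the 2 genes overlap. A start here is the outermost 5′ base of the counted exons. One was found for 31 of 78 members, or 39.7%, against 18.2% of the protein-coding genes at 1 TPM or more and 10.6% of all protein-coding genes. Within 250 bases the count was 20, or 25.6%, against 11.8% and 6.61%. The next 3 neighbours, which have mitochondrial products, are examples chosen after their values were seen. Mrps12 starts 172 bases from Sars2, the mitochondrial seryl-tRNA synthetase gene (25.3 ± 1.16 TPM). Mrpl43 starts 116 bases from Twnk, the gene for the helicase that copies mitochondrial DNA (29.7 ± 2.40 TPM). Mrpl47 starts 615 bases from Ndufb5, a complex I subunit gene (35.1 ± 1.13 TPM).

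Some neighbours were at levels far from those of the members beside them. Mrps12 lay above Sars2 in all 4 libraries, with a log2 ratio of 1.25 ± 0.22 (n = 4, exact two-sided sign-flip permutation test p = 0.13, adjusted p = 0.15), which was 0.66 with principal transcripts. Mrpl49, at 58.4 ± 3.97 TPM, starts 137 bases from Fau, which encodes a fusion of a ubiquitin-like protein with cytosolic ribosomal protein S30 and was at 2817 ± 98.6 TPM. Mrpl32 starts 205 bases from the proteasome subunit gene Psma2 (372 ± 18.6 TPM). In the other direction, Mrpl10 starts 153 bases from Lrrc46 (0.084 TPM) and Mrpl9 lies 597 bases from Oaz3 (0.0045 TPM), an ornithine decarboxylase antizyme gene of male germ cells. Mrps11 and Mrpl46 are divergent neighbours of each other in the sense above, with starts 412 bases apart on chromosome 7. By the counted exons these 2 genes overlap there, in 7.97% of the exon bases of Mrps11 and 12.2% of those of Mrpl46. They were at 23.6 ± 1.66 and 48.4 ± 4.77 TPM, and Mrpl46 was the higher in all 4 libraries, with 45.0, 55.4, 46.0 and 47.0 TPM in replicates 1 to 4.

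Promoter windows from RefSeq (GRCm38.p6), 250 bases before to 50 after a gene's start, were found for 69 of the 78 members. The RefSeq starts are not always those used above for the neighbours. For Mrpl46 the start used above is base 78783531, outside its window. Mrpl15, Mrps28, Mrpl19, Mrps35, Mrpl4, Mrpl54, Mrpl38, Mrpl13 and Mrps34 were not matched. A few windows are printed, since they show the most abundant member, the member listed lowest, the neighbours Mrps11 and Mrpl46, and Mrps27, the member with the most matches. They are 5′ to 3′ on the strand of the gene, at chr3:87919294-87919593 (plus) for Mrpl24, chr7:78782881-78783180 (plus) for Mrps11, chr7:78783040-78783339 (minus) for Mrpl46, chr6:83108858-83109157 (plus) for Mrpl53 and chr13:99344536-99344835 (plus) for Mrps27. Capitals mark letters that match, on either strand, the core CCGGAA bound by ETS factors, AANATGGC for YY1, or the NRF1 letters GCGC and TGCGC with 1 base of any kind between them. Factors of these families are known regulators of mitochondrial genes.
Mrpl24: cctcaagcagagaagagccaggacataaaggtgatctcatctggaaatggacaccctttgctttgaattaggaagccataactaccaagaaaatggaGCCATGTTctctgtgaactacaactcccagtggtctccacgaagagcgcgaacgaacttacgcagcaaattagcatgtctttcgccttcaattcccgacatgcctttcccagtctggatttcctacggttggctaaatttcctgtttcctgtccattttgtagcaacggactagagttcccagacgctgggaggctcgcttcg
Mrps11: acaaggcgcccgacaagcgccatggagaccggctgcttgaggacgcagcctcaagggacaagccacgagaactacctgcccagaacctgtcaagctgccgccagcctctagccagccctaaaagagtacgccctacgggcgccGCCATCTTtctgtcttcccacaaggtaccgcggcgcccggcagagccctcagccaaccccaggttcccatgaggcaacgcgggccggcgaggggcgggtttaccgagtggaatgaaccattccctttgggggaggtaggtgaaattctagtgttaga
Mrpl46: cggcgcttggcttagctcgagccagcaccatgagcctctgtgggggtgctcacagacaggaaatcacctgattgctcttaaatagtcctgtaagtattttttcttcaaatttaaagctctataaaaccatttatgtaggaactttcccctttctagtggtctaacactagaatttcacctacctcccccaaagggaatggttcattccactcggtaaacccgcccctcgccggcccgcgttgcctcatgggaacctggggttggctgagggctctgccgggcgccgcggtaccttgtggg
Mrpl53: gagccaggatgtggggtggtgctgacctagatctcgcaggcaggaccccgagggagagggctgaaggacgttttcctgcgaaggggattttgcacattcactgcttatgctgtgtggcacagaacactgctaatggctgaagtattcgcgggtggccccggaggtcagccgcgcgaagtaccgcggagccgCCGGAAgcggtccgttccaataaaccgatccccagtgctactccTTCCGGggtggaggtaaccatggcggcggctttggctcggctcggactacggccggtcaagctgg
Mrps27: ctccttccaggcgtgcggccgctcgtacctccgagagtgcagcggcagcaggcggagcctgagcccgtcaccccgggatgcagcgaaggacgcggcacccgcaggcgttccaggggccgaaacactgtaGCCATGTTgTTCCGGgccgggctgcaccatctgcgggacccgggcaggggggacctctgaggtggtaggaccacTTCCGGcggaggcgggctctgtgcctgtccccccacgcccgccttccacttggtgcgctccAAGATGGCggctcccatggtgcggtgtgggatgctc

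Mrpl24 and Mrps11 each held 1 YY1 match, Mrpl46 held none, Mrpl53 held 2 ETS matches, and Mrps27 held 2 ETS and 2 YY1 matches. The Mrps11 and Mrpl46 windows share 141 bases, read from opposite strands. Mrpl24, the highest member, and Mrpl53, the one listed lowest, thus both held a match, of different kinds. Over the 69 windows, the ETS core was found in 39, or 56.5%, against 32.4% of 7980 protein-coding genes at 1 TPM or more, 19.7% of 16469 protein-coding genes and 15.2% of all 27025 windows of this length. The YY1 letters were found in 21, or 30.4%, against 10.1% of the genes at 1 TPM or more and 6.23% of all windows. The NRF1 letters were found in 13, or 18.8%, against 12.2% and 4.78%. Matches of these 3 motifs did not overlap each other in any member. A match is a description of letters and not a bound site.

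**Figure D5:**
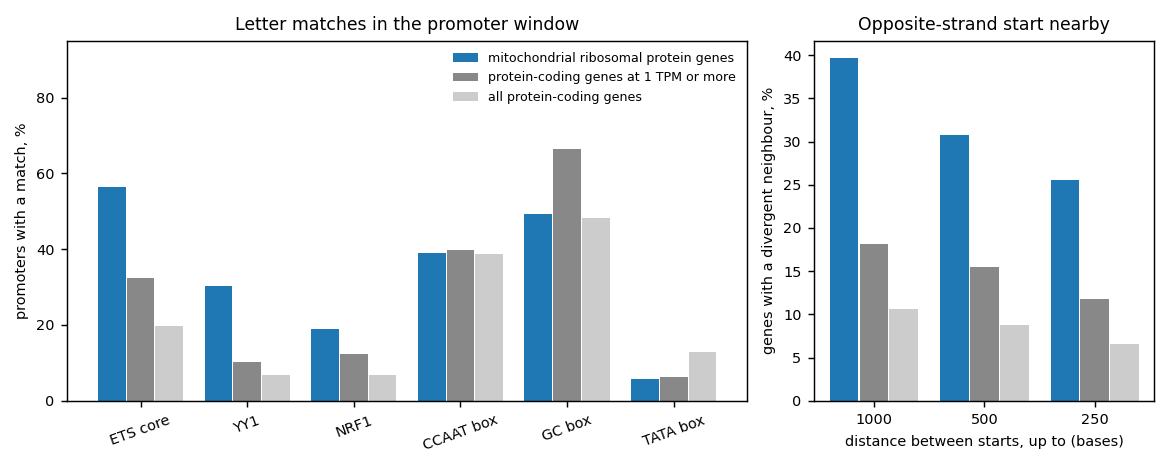
Left, percent of promoter windows with a match to each of 6 letter patterns, and right, percent of genes with an opposite-strand start within 1000, 500 or 250 bases, for members (blue), protein-coding genes at 1 TPM or more (dark grey) and all protein-coding genes (light grey). The blue bar is the highest for the ETS core (56.5%), YY1 (30.4%), NRF1 (18.8%) and all 3 distances, and is near or below the dark grey bar for the CCAAT, GC and TATA boxes.

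As the plot of matches shows, the other promoter elements were no more frequent in the members than in genes at 1 TPM or more. CCAAT was found in 39.1% of member windows and 39.7% of those of genes at 1 TPM or more, GGGCGG in 49.3% and 66.5%, and TATAAA in 5.8% and 6.22%. The shares over all windows were 37.9%, 35.9% and 14.2%, so GGGCGG was more frequent in the members than over all windows. At least one of the ETS, YY1 and NRF1 patterns was present in 55 of 69 windows, or 79.7%, against 46.2% of the genes at 1 TPM or more, and 14 windows held none. The members' windows had a median GC content of 58.3% and a ratio of observed to expected CpG of 0.818, against 61.0% and 0.791. The ETS matches of members lay at a median of 18 bases before the RefSeq start, and those of genes at 1 TPM or more at 42 bases before it. Members with a match had a median of 41.4 TPM for ETS, 41.9 TPM for YY1 and 41.4 TPM for NRF1, against 31.5, 38.5 and 39.6 TPM without one. For CCAAT and GGGCGG the medians lay the other way, at 36.6 and 35.5 TPM with a match against 40.6 and 41.9 TPM without one. The 4 members with TATAAA had a median of 48.3 TPM, against 38.6 TPM without it. These medians describe the members and were not tested.

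The genes that work with these proteins were expressed alongside them. The 5 mitochondrial ribosomal proteins with other symbols were all at 1 TPM or more in every library, with a median of 51.1 TPM. They were Chchd1 (113 ± 7.88 TPM), Aurkaip1 (93.7 ± 5.31 TPM), Dap3 (51.1 ± 2.86 TPM), Gadd45gip1 (42.0 ± 3.12 TPM) and Ptcd3 (37.0 ± 0.916 TPM), all within the range of the members. All 24 genes for assembly factors of the mitochondrial ribosome were too, with a median of 22.5 TPM. The highest was Rbfa, for a factor that binds the small subunit's RNA, at 138 ± 11.2 TPM, followed by Ngrn (60.8 ± 3.37 TPM), Mettl17 (60.2 ± 0.988 TPM) and Eral1 (51.4 ± 3.89 TPM).

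All 13 translation factor genes reached 1 TPM in every library, with a median of 17.3 TPM. The elongation factor gene Tufm was at 75.1 ± 4.01, the membrane insertase gene Oxa1l at 54.0 ± 2.59, Taco1, for an activator of Co1 translation, at 46.0 ± 4.81, and the initiation factor gene Mtif2 at 37.8 ± 2.62 TPM. All 12 genes for mitochondrial transcription and RNA stability reached it as well, with a median of 43.1 TPM, led by Hsd17b10 (114 ± 7.87 TPM), Elac2 (59.7 ± 4.67 TPM) and Pnpt1 (59.5 ± 2.45 TPM), which act in RNA processing or decay, and by Tfam (55.0 ± 2.89 TPM), which packs mitochondrial DNA. With union exon lengths, the median of the translation factors was thus below that of the ribosomal proteins they serve. Levels of the factors with another gene length are not given. None of these 54 genes was called excess variable by the edgeR test (adjusted p below 0.05), 1 had an unadjusted p below 0.05 and 0 were DESeq2 outliers, with the background given for the members.

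The messages that these ribosomes translate were in most cases either far more abundant than the members or hardly counted at all. The gene mt-Co1, for a core subunit of complex IV, was at 22343 ± 1571 TPM and mt-Cytb, for a subunit of complex III, at 11004 ± 600.1 TPM. Of the 13 mitochondrial messages, 7 reached 1 TPM in every library, the lowest of them mt-Nd6 at 21.3 ± 4.97 TPM. Of the others, mt-Co2 and mt-Nd3 had 0 counts, and mt-Co3, mt-Atp6, mt-Atp8 and mt-Nd4l had 6, 5, 1 and 1 counts over all libraries. These low counts lie beside the high levels of other messages from mitochondrial DNA, and their cause was not tested, so no ratio of members to these messages is given.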

How the data were processed

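RNA-seq was analysed in 4 libraries of 1 group. Each deposited file holds the unnormalized fragment counts of 1 library. Per the file headers, featureCounts 1.4.6-p4 counted read pairs with both ends mapped on GENCODE M13 exons (mm10) with the reverse-strand setting, and fragments that map to several places or genes were left out, since no option to keep them was set. An aligner version was not given in the sources used. The exon length of each gene, another deposited column, came with the counts.

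GENCODE M21 gave the symbol of each gene ID (50376 of 50600 matched). TPM was computed from counts and union exon length. Excess spread was tested with edgeR 4.0.16 in R 4.3.3 (intercept alone, TMM, filterByExpr, robust quasi-dispersion, one-sided F test against the trend, Benjamini-Hochberg over 12464 genes), and the script was tested on simulated data. DESeq2 1.42.0 gave an alternative. Gene pairs used log2(TPM + 0.1). Python 3.11.15, pandas 2.3.3 and scipy 1.17.1 served the other steps. Library totals above give the depth, and their number, 4, limits precision. No libraries were duplicates, since the counts of each pair differed beyond sampling noise, with a chi-square per gene of 9.60 to 30.1.

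Principal transcripts came from GENCODE M21, with their length capped at the counted exon length. The members and lists were chosen with earlier results of these data known. Named are the 10 highest and 8 lowest members, the 6 of largest and 4 of smallest coefficient of variation, members of listed pairs or roles, and up to 4 genes per pathway list. Mrpl33, Mrpl30, Mrpl42, Mrpl43, Mrpl49, Mrpl46 and the neighbouring genes were named after their values were seen. Alternatives covered gene length, denominator, scaling, filters, pseudocounts, left-out libraries and start distance. A marker gene of the lists is not reported here.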

Additional observations from a re-analysis of the deposited data

Results flagged for a closer look

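In 4 members, 1 library lay further from the other 3 than Dixon's 95% critical value allows. Mrpl9 was at 93.8 TPM in replicate 2, against a mean of 88.2 TPM in the others. Replicate 4 was low in the other cases, with Mrpl2 at 60.2 TPM against 66.0, Mrps26 at 36.1 TPM against 43.1 and Mrpl11 at 20.9 TPM against 26.2. These are 4 of 78 members, or 5.13%, and 584 of all 12464 genes tested, or 4.69%, met the same limit. Chance gives about 1 in 20. The mean centred log2(CPM + 1) of the large-subunit genes was 0.030 in replicate 3, against -0.00997 on average in the others.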

How the results depend on the processing

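No paired analysis was possible because the series has 1 group. All 78 members stayed at 1 TPM or more, and 0 were called excess variable, under each alternative run for those results. The median of the members' mean TPM was 38.9 with the longest coding transcript, 38.6 with the principal transcript (chosen after seeing the data) and 46.3 over nuclear protein-coding genes alone. The log2 ratio of homologues to mitochondria-specific genes was 0.25 with principal transcripts, the same as that of large to small with these lengths (0.25). With the longest coding and the principal transcript, the log2 ratio of Mrps18a to Mrps18b was 0.28 and 0.28, that of Mrps18a to Mrps18c 0.83 and 0.47, and that of Mrps18b to Mrps18c 0.55 and 0.19. Leaving out 1 library moved the last from -0.050 (without replicate 1) to 0.037 (without replicate 3), and it was 0.0034 without replicate 4. These turns follow from the lengths by construction, and that of the left-out libraries from a value near 0.

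Genes called among all tested, 24 in the report, were 349 with no filter on low counts, 10 at 5 CPM or more on average, 6 with nuclear protein-coding genes alone, 5 with the non-robust fit, 108 as DESeq2 outliers and 7 to 86 with 1 library left out, and the cause was not tested. An unadjusted p below 0.05 was reached by 3 members with no filter and by 1 member without replicate 2 and 1 without replicate 3. Without 1 library the SD of the family's mean was 0.00931 to 0.0175. Divergent starts within 250 bases numbered 20. Of the members' mean levels, 67 moved by more than 1 SD with the coding transcript and 69 with the principal one. Both counts include the rescaling of TPM to the same sum. For 11 members the annotated coding transcript is longer than the counted exons, which makes that length too long for them. Counts of 10 to 30 limit Mrpl53.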
